A study of Ovis aries and Bos taurus with 10 samples.

Results

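Chromatin modifiers and remodelling subunits are the proteins that write, remove and read marks on histones and DNA or that move nucleosomes. They were taken from the chip annotation by symbol: HDAC, KDM, KAT, KMT, SMARC, CHD, CBX, DNMT, PRMT, SUV, SETD, BRD, HMGA, HMGB, HMGN and ING1 to ING5 genes, with RNF2, RING1, EZH2 and EED of the Polycomb group. The rule found 76 genes on 147 probe sets, of 9155 genes that had a symbol of their own on the array, and 1 probe set stood for each gene, the one with the highest mean on the captured arrays. SUZ12 and BMI1, also named in the rule, matched no probe set.

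Oocytes and granulosa cells (GC) were laser captured from ovaries of new-born lambs (under 1 day old) at the primordial, primary and secondary follicle stages, which gave the oocyte arrays PDO, PMO and SECO and the GC arrays PDG, PMG and SECG. Each was 1 array of RNA pooled from 2 lambs (primordial and secondary) or 4 lambs (primary), amplified in 2 rounds and labelled with the Arcturus turbo kit (P3). Ovine fetal ovary at 132 days post coitum was hybridized after amplification with Affymetrix labelling (P2), after P3 and after the standard Affymetrix protocol (P1), and bovine fetal ovary at 8 months after P1, with 1 array each. All RNA was hybridized to a bovine chip, so the ovine samples were cross-species hybridizations, and no condition had a replicate array.

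Signals are MAS 5.0 values on a linear scale, each array scaled to a target of 100, and differences are on the log2(signal + 20) scale. Detection was read from rank: the share of probe sets that the study's present calls gave for an array was counted down from its brightest signal. The lowest detected signal lay between 45.8 (PDG) and 74.2 (PMO) on the captured arrays. On these arrays the labels of the captured compartments were only partly borne out by marker genes. The 9 oocyte markers on the chip, ZP2, ZP3, ZP4, GDF9, BMP15, KIT, NLRP5, MAEL and SYCP3, summed to 7759 (PDO), 7940 (PMO) and 2792 (SECO) in oocytes, against 3057 (PDG), 5680 (PMG) and 3476 (SECG) in GC, so the 2 compartments overlapped and none of the 9 separated them. Stroma and matrix markers, 9 of 9 measured, summed to 18508, 5822 and 18475 in PDO, PMO and SECO, against 54954, 33324 and 16873 in PDG, PMG and SECG. The 13 granulosa cell markers on the chip had lower sums in oocytes at each stage. These were 496, 730 and 1047 in PDO, PMO and SECO, against 950, 1522 and 3023 in PDG, PMG and SECG. Of the 13, 8 were detected, and none of these 8 separated the compartments. Among all detected genes 8.04% had every oocyte array above every GC array and 7.18% had every one under, so the counts of separating markers say little. Single markers did not all follow the sums: KRT18, GATA4, NR5A1 and INHBA were each higher in the oocyte at some stage. AMH, KITLG, FOXL2, FSHR and CYP19A1 were detected on none of the 6 arrays. Of the 5 smooth muscle markers on the chip TAGLN and DES were detected on none of the 6 arrays, and the 5 summed to 583, 466 and 595 in PDO, PMO and SECO, against 2429, 1144 and 1421 in PDG, PMG and SECG. A lower level per cell and a smaller share of cells of one type cannot be told apart in such captures.

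Histone tails are acetylated by KAT enzymes and deacetylated by HDAC enzymes, and are methylated on lysine by KMT and SETD enzymes and on arginine by PRMT enzymes. Polycomb complexes keep genes silent by ubiquitinating histone H2A and methylating histone H3, and SMARC and CHD ATPases slide or evict nucleosomes. In mouse, the growing oocyte takes up its DNA methylation through the de novo enzyme DNMT3A and its partner DNMT3L while it is arrested in prophase of meiosis, and oocyte chromatin is remodelled as the follicle grows.

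Most of these genes were measurable. Of the 76 members, 65 (85.5%) were detected on at least 1 captured array and 34 (44.7%) on all 6, beside 68.6% and 34.8% of all genes. Signals of different probe sets depend on the probes and are not set against each other as levels. The highest signal was that of HMGN2, a nucleosome-binding high mobility group protein, which had signals of 9765, 6168 and 5131 in PDO, PMO and SECO, against 6492, 4584 and 5147 in PDG, PMG and SECG. The next 5 probe sets by mean signal were those of HMGN1, HMGB1, SMARCA4, EED and CHD4. The 11 members detected on no captured array were BRD2, BRD3, BRD9, HDAC2, HDAC8, HDAC10, ING3, KAT14, PRMT3, SMARCB1 and DNMT3B. Of these, 3 (HDAC2, HDAC8 and ING3) were detected on none of the 10 arrays, bovine ovary included. DNMT3B just missed the limit in PMO, at 74.0 against 74.2. SMARCB1, a core subunit of the SWI/SNF remodelling complex, had a signal of 4.39 to 21.8 over the 6 captured arrays. In ovine fetal ovary it was at 312 under P1, but at 27.3 and not detected under P3, the labelling of the captured arrays.

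**Figure D1:**
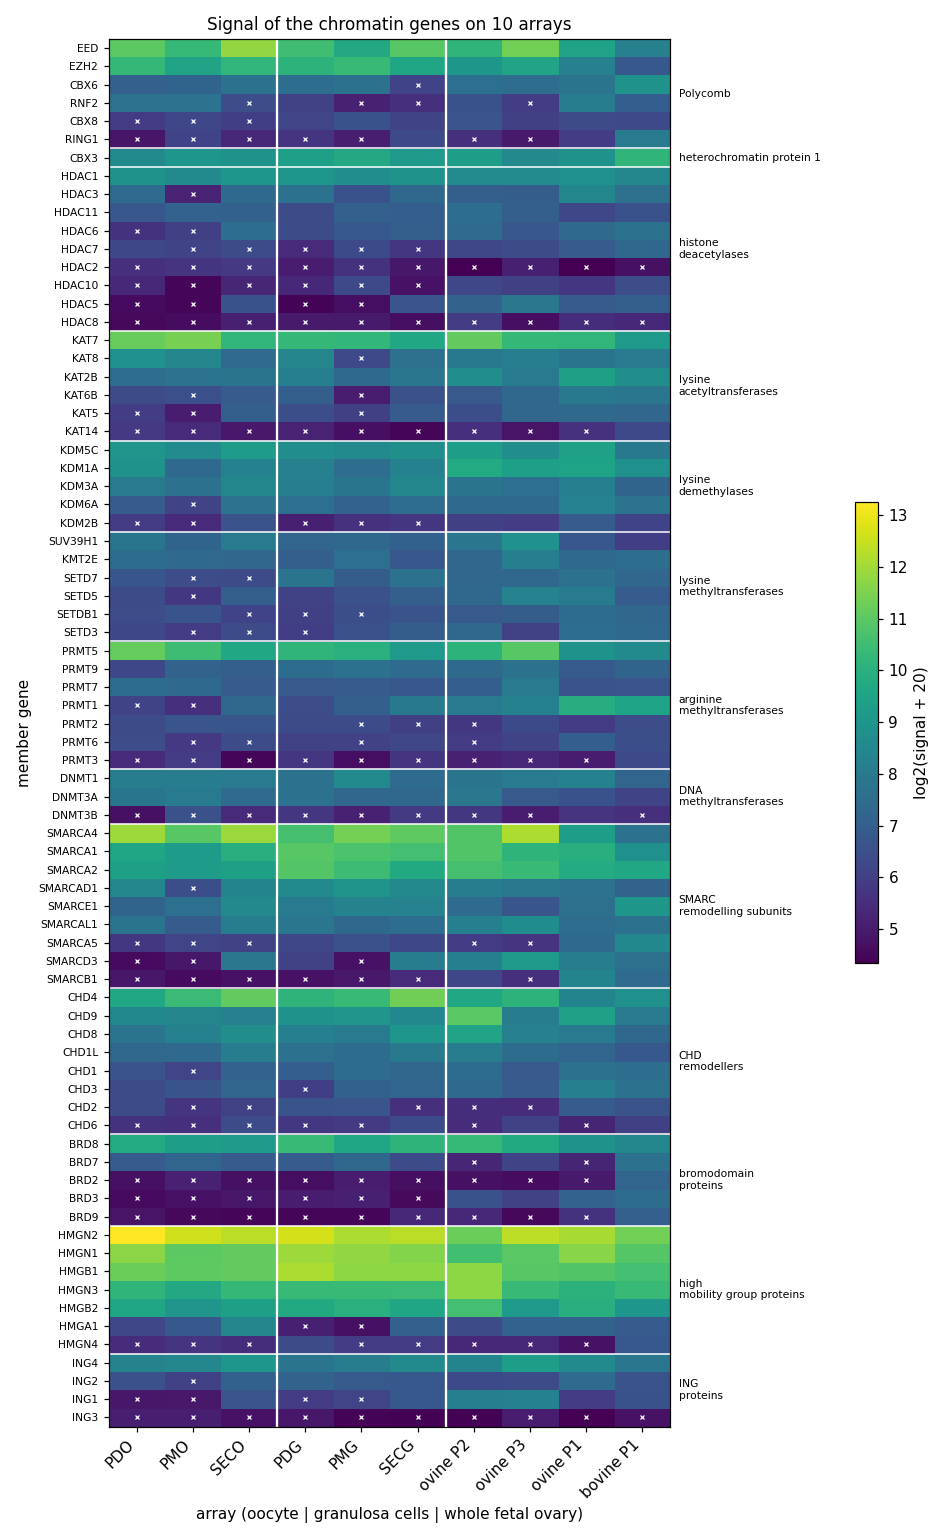
Signal of the 76 members, as log2(signal + 20), on the oocyte arrays (PDO, PMO, SECO), the GC arrays (PDG, PMG, SECG) and the whole fetal ovary arrays (ovine P2, P3 and P1, bovine P1), grouped by family and ordered by mean signal on the captured arrays; a white cross marks a member not detected on that array. The row of HMGN2 is the brightest, and 11 rows carry a cross on all 6 captured arrays.

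Oocytes were set against GC with the 3 stages as paired observations. RNF2, HMGA1 and KAT7 had the largest differences toward oocytes and SMARCA1, SMARCA2 and SETD7 toward GC, but no probe set passed the test: limma called 0 of 11642 (0%) at an adjusted p under 0.05, and the smallest adjusted p of any member was 0.406. At an unadjusted p under 0.05 there were 7 of the 65 detected members (10.8%), beside 677 of 6284 detected genes (10.8%). The median difference was -0.13 over the members and 0.05 over all genes. Of the 65, 2 passed the detection filter only through oocytes (HDAC7 and KDM2B) and 5 only through GC (CBX8, CHD6, HMGN4, RING1 and SMARCA5), so the filter itself favoured that direction for them.

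The largest difference toward oocytes was that of RNF2. This gene, also called RING1B, encodes the ubiquitin ligase of Polycomb repressive complex 1. Its signals were 191, 192 and 66.3 in PDO, PMO and SECO, against 46.9, 15.5 and 26.7 in PDG, PMG and SECG. The lowest oocyte array was above the highest GC array, but SECO, PMG and SECG were not above the detection limit, so at the secondary stage neither compartment was detected. The fitted difference was 1.71 ± 0.39 (SE, 3 arrays each, limma adjusted p = 0.406), with 1.66, 2.57 and 0.89 at the primordial, primary and secondary stages. At the primary stage, with PMG placed at its limit, RNF2 was at least 2.3-fold higher in PMO. Both RNF2 and the summed oocyte markers were lowest in SECO among the oocyte arrays; the part of the markers in the result was not tested.

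The paralogue RING1 was not detected on any oocyte array and was detected in GC only in SECG, at 59.1. EED, the subunit of Polycomb complex 2 that reads trimethylated lysine, was at 2023, 1257 and 3590 in PDO, PMO and SECO, against 1450, 825 and 1950 in PDG, PMG and SECG. EED was higher in the oocyte at each stage but the compartments overlapped (0.65 ± 0.30, limma adjusted p = 0.473). The chip annotation gives the symbol EED to 23 probe sets, whose geometric mean signal over the 6 arrays lay between 5.44 and 1667, and 13 of them averaged higher and 10 lower in oocytes, so the value belongs to the probe set used and not surely to the gene; averaged over these sets the difference was 0.20. EZH2, the methyltransferase of the same complex, did not separate the compartments, with 1227, 736 and 1169 in PDO, PMO and SECO, against 1071, 1294 and 759 in PDG, PMG and SECG (0.00 ± 0.37). CBX6, a chromodomain subunit, was at 115, 130 and 182 in oocytes, against 171, 188 and 49.5 in GC, where SECG was not detected. CBX8, its relative, was detected on all 3 GC arrays at 54.0, 75.3 and 51.4 and on no oocyte array, where it was at 39.9, 55.5 and 43.9. The limits of the oocyte arrays were on average above these GC signals, so no fold can be given over the stages together. By stage, CBX8 was at least 1.02-fold lower in PDO and at least 1.01-fold lower in PMO, with no bound for SECO.

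HMGA1 followed RNF2. This AT-hook protein, which binds the minor groove and opens chromatin, is known as a gene of embryonic and dividing cells. It had signals of 55.4, 90.0 and 318 in PDO, PMO and SECO, against 15.2, 6.73 and 116 in PDG, PMG and SECG. It was detected on all 3 oocyte arrays but only on SECG of the GC arrays, and was higher in the oocyte at every stage, while SECG exceeded PDO and PMO so that the groups overlapped. The difference was 1.49 ± 0.33 (limma adjusted p = 0.406), with 1.10, 2.04 and 1.32 by stage. PDG and PMG were not detected, and with these at their limits HMGA1 was at least 1.15-fold higher in PDO and at least 1.19-fold higher in PMO.

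The acetyltransferase KAT7, known as HBO1, had signals of 2300, 2720 and 1164 in PDO, PMO and SECO, against 1209, 1182 and 781 in PDG, PMG and SECG. It was higher in the oocyte at each stage, and SECO lay under PDG and PMG (0.89 ± 0.31, limma adjusted p = 0.414). ING4, which brings this enzyme to histone H3, was at 304, 336 and 500 in oocytes, against 200, 258 and 373 in GC, a difference of 0.44 ± 0.30 of one sign at all stages, which was 0.23 with its probe sets averaged. KAT8, the histone H4 acetyltransferase MOF, was at 437, 319 and 157 in PDO, PMO and SECO, against 313, 59.7 and 179 in PDG, PMG and SECG, and its difference had the other sign at the secondary stage.

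The arginine methyltransferases divided by member. PRMT5, which makes symmetric dimethylarginine and in mouse is needed by germ cells, was at 2226, 1420 and 778 in PDO, PMO and SECO, against 1123, 992 and 556 in PDG, PMG and SECG (0.65 ± 0.31, limma adjusted p = 0.476). It was higher in the oocyte at each stage and both compartments were lowest at the secondary stage. PRMT7 (0.42 ± 0.31) and PRMT2 (0.32 ± 0.31) were of the same sign. PRMT2 did not overlap between compartments, but PDO at 65.3 and the highest GC array at 65.2 were all but equal. Its difference was 0.04 with its probe sets averaged and 0.14 without the secondary stage. The other PRMT2 set was detected on 1 captured array. PRMT1, the main asymmetric enzyme, ran the other way, at 51.0, 27.8 and 140 in PDO, PMO and SECO, against 66.3, 112 and 227 in PDG, PMG and SECG. Only SECO of its oocyte arrays was detected, and the difference was -0.79 ± 0.35 (limma adjusted p = 0.458). It was -0.17 with its 2 probe sets averaged and -0.45 without the primary stage. The other PRMT1 set was detected on no captured array. PRMT9 was at 57.0, 123 and 110 in oocytes, against 159, 187 and 155 in GC, without overlap (-0.72 ± 0.32).

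Several nucleosome remodelling ATPases were lower in oocytes on these arrays. SMARCA1, the ISWI ATPase also called SNF2L, had signals of 757, 591 and 985 in PDO, PMO and SECO, against 1933, 1679 and 1530 in PDG, PMG and SECG. Every oocyte array was under every GC array, and all 6 were detected. The difference was -1.14 ± 0.33 (SE, 3 arrays each, limma adjusted p = 0.406). SMARCA2, the BRM ATPase of the SWI/SNF complex, was at 650, 587 and 654 in oocytes, against 1862, 1378 and 852 in GC, again without overlap (-1.02 ± 0.34, limma adjusted p = 0.414). Its level was almost even over the oocyte arrays and lowest at the secondary stage in GC, where the difference was -0.37. SMARCA4, the BRG1 ATPase that takes the place of SMARCA2 in the same complex, was at 3932, 1952 and 3811 in PDO, PMO and SECO, against 1567, 2688 and 2097 in PDG, PMG and SECG. It was higher in the oocyte at the primordial and secondary stages and lower at the primary stage (0.57 ± 0.41, limma adjusted p = 0.615). The smooth muscle marker sums given above were also lower in oocytes at all 3 stages, and the stroma sums at the primordial and primary stages, and their part in these values was not tested.

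SMARCA5, the second ISWI ATPase, was detected on all 3 GC arrays at 55.5, 74.7 and 56.8 and on no oocyte array, where it was at 34.5, 53.0 and 47.2. Again the oocyte limits allow no fold over the stages together. By stage, SMARCA5 was at least 1.04-fold lower in PDO and at least 1.01-fold lower in PMO, with no bound for SECO. SMARCAD1, a remodeller of heterochromatin, was at 336, 69.5 and 306 in PDO, PMO and SECO, against 357, 480 and 348 in PDG, PMG and SECG, and its difference of -0.91 ± 0.50 became -0.13 without the primary stage, that is without the undetected PMO. The count was made over the 7 SMARC members detected in both compartments, which leaves SMARCA5 out. Without overlap, 3 were lower and 0 higher in oocytes, beside 6.66% and 7.65% of genes detected in both. At every stage, 3 were lower and 0 higher, beside 15.9% and 20.4% of those genes. SMARCE1, SMARCAL1 and SMARCD3 did not keep one sign.

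**Figure D2:**
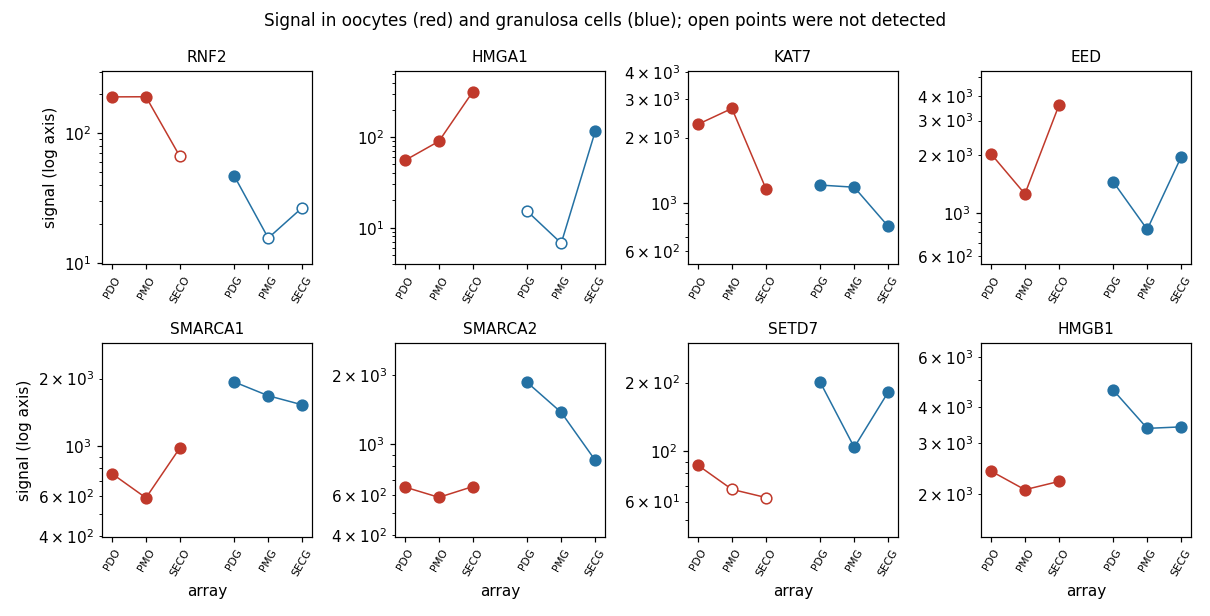
Signal (log axis) of 8 members on each captured array, oocytes in red on the left and GC in blue on the right, each by stage; open points were not above the detection limit. RNF2 in oocytes lies between 66.3 and 192 and in GC between 15.5 and 46.9, while SMARCA1 in oocytes lies between 591 and 985 and in GC between 1530 and 1933.

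HMGB1 was at 2400, 2066 and 2208 in PDO, PMO and SECO, against 4600, 3382 and 3423 in PDG, PMG and SECG. The oocyte arrays were close together and all under the GC arrays (-0.76 ± 0.30, limma adjusted p = 0.43). A second HMGB1 set, also detected on all 6 arrays, was at 316, 243 and 194 in oocytes, against 342, 538 and 200 in GC. That set was lower in the oocyte at each stage but overlapped (-0.41), and the difference was -0.58 with the probe sets averaged. HMGN3 (-0.34 ± 0.31) did not overlap, HMGN4 (-0.55 ± 0.32) was detected only in PDG, at 65.3, and HMGN1 (-0.52 ± 0.31) overlapped. Of the 6 high mobility group genes detected in both compartments, which leaves HMGN4 out, 4 were lower in oocytes at each stage, beside 15.9% of genes detected in both, and 1, HMGA1, was higher, beside 20.4%. Heterochromatin protein CBX3 was at 371, 502 and 465 in oocytes, against 641, 813 and 534 in GC, without overlap (-0.54 ± 0.31).

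SETD7, a lysine methyltransferase of histone H3 and of other proteins, was at 86.7, 67.9 and 62.5 in PDO, PMO and SECO, against 201, 104 and 182 in PDG, PMG and SECG. The groups did not overlap, but only PDO of the oocyte arrays was detected (-0.94 ± 0.32, limma adjusted p = 0.414). BRD8, a bromodomain subunit of the TIP60 acetyltransferase complex, was at 860, 610 and 533 in oocytes, against 1268, 744 and 1116 in GC (-0.62 ± 0.32, -0.39 with its probe sets averaged and -0.41 without the secondary stage). The other BRD8 set was detected on no captured array. SUV39H1, which trimethylates histone H3 in heterochromatin, was at 203, 130 and 243 in oocytes, against 132, 144 and 118 in GC, and differed in sign at the primary stage.

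In all, 2 of 65 detected members (3.08%, RNF2 and PRMT2) had every oocyte array above every GC array, beside 8.04% of detected genes, and 10 of 65 (15.4%) had every oocyte array under every GC array, beside 7.18% of detected genes. Among members detected on all 6 arrays the counts were 0 of 34 (8.44% of genes) and 6 of 34 (8.66% of genes). Among the 58 members detected in both compartments they were 2 (7.65% of genes) and 8 (6.66% of genes). The 6 under on all arrays were SMARCA1, SMARCA2, HMGB1, HMGN3, CBX3 and PRMT9, of which HMGB1 overlapped on its second probe set. With only 4 arrays left the counts were larger for members and for all genes: without the primordial stage 4 members were above (18.7% of genes) and 16 under (15.9%), without the primary stage 14 above (18.1%) and 14 under (15.2%), and without the secondary stage 9 above (24.3%) and 25 under (20.5%).

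**Figure D3:**
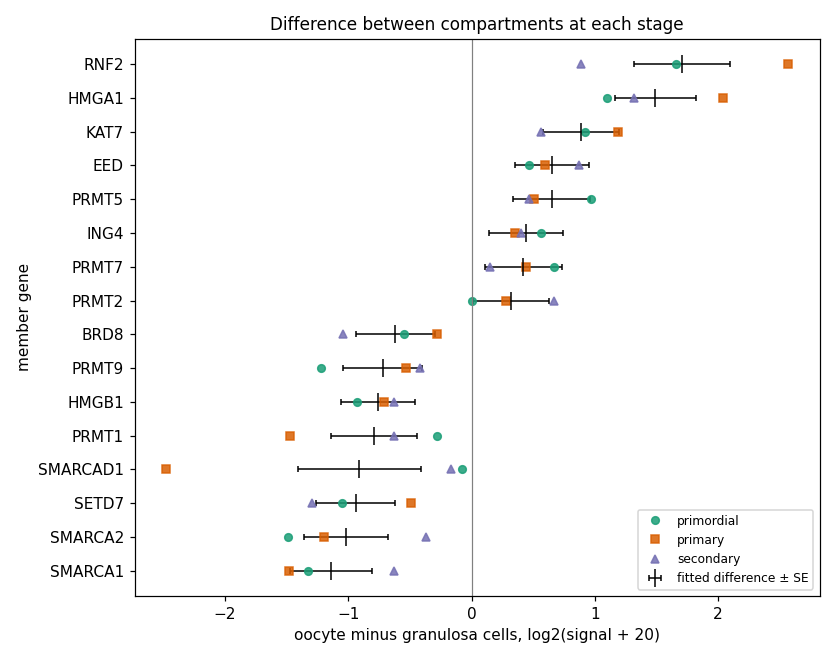
Oocyte minus GC difference, in log2(signal + 20), of the 8 members highest and the 8 lowest in oocytes among those of one sign at all 3 stages and detected on at least 3 of 6 arrays; coloured points are the stages and the black bar is the fitted difference with its SE. RNF2 is at 1.71 and SMARCA1 at -1.14, and the primary-stage point of SMARCAD1 lies apart at -2.48.

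Several families had no member without overlap between the compartments. HDAC1, the class I deacetylase of the SIN3 and NuRD complexes, was nearly level at 466, 370 and 498 in PDO, PMO and SECO, against 495, 396 and 456 in PDG, PMG and SECG (-0.02 ± 0.30). None of the 6 detected deacetylases was without overlap, beside 8.04% of detected genes above and 7.18% under, so this count says little about the family. DNMT1, which copies methylation after replication, was at 253, 251 and 245 in oocytes, against 185, 359 and 157 in GC; DNMT3A was at 202, 230 and 156 in oocytes, against 190, 135 and 145 in GC (0.29 ± 0.32, one sign at all stages). DNMT3B, the other de novo enzyme, was detected in neither, at 6.93, 74.0 and 21.8 in oocytes, against 33.3, 15.5 and 38.3 in GC. KDM5C, an X-linked demethylase in mammals, was at 492, 384 and 575 in oocytes, against 400, 374 and 419 in GC (0.25 ± 0.30), higher in the oocyte at each stage but overlapping. Of the 7 CHD remodellers detected in both compartments, 2 (CHD1 and CHD9) were lower in oocytes at each stage, beside 15.9% of genes detected in both, and 0 were higher at each stage, beside 20.4%.

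Partner genes outside the symbol rule were read from lists of other subunits. The counts are over genes detected in both compartments. Of 21 subunits of SWI/SNF, NuRD and INO80 complexes, 3 were above without overlap in oocytes (DPF2, VPS72 and TTF2) and 2 under (SS18 and ACTB); limma called 0 of them. SS18, a subunit of the complexes built on SMARCA2 or SMARCA4, was at 2248, 1756 and 1877 in PDO, PMO and SECO, against 3117, 3141 and 3537 in PDG, PMG and SECG. Of 18 histone chaperone and histone genes, 2 were above (ASF1A and CHAF1A) and 2 under (ANP32E and H2AZ1). CHAF1A, the large subunit of the chaperone that loads new nucleosomes, was at 718, 536 and 441 in oocytes, against 306, 304 and 246 in GC, and the histone variant gene H2AZ1 was at 1189, 1425 and 1478 in oocytes, against 2171, 2586 and 3095 in GC. None of the 11 further Polycomb subunits was without overlap. Of 13 acetylation genes 2 were above (HAT1 and TADA2A) and 1 under (EPC1), of 10 histone methylation genes 2 were above (WDR5 and MEN1) and 1 under (JMJD1C), and of 6 methylation readers and TET enzymes 1 was above (DMAP1) and 0 under. SS18, CHAF1A and H2AZ1 were picked for their values from the genes without overlap. All genes detected in both compartments gave 7.65% above and 6.66% under, against which these counts are to be read.

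Stage was compared next, as secondary minus primordial over both compartments. SMARCD3, HDAC5, HMGA1, PRMT1 and CHD4 were at least 2-fold higher on the log2(signal + 20) scale at the secondary stage in both compartments, and PRMT5 and KAT8 were lower in both by less than this in GC. Limma called 0 of 11642 probe sets (0%) at an adjusted p under 0.05, and the smallest adjusted p of a member was 0.238; at an unadjusted p under 0.05 there were 10 of 65 members (15.4%), beside 810 of 6284 genes (12.9%). The 5 of 65 members (7.69%) stand beside 3.84% of detected genes, and 0 members were at least 2-fold lower in both on this scale, beside 1.93% of detected genes. HDAC5 is counted there against undetected primordial arrays; with undetected arrays at their limits 4 members (6.15%) were higher, beside 2.42% of genes, and 0 lower, beside 1.30% of genes. With a constant of 1 in place of 20 the counts were 7 higher and 1 lower.

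SMARCD3, the BAF60C subunit that links SWI/SNF to transcription factors in heart and muscle, had signals of 4.5, 10.01 and 213 in PDO, PMO and SECO, and of 47.8, 7.34 and 251 in PDG, PMG and SECG. Both secondary arrays were far above the other 4, of which only PDG was detected. The fitted difference was 2.63 ± 0.48 (limma adjusted p = 0.238), and the bound for oocytes, with PDO at its limit, was at least 3.23-fold higher in SECO. Limma called it in 2 alternative fits, with a constant of 50 (adjusted p = 0.0447) and without the primary stage (adjusted p = 0.0498), and over all alternatives its adjusted p lay between 0.0447 and 0.459.

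HDAC5, a class IIa deacetylase that shuttles between cytoplasm and nucleus, was chosen for mention after its values were seen. It was at 4.03, 2.28 and 76.8 in PDO, PMO and SECO and at 1.31, 5.45 and 84.4 in PDG, PMG and SECG, detected on the secondary arrays alone. With PDO and PDG at their limits it was at least 1.34-fold higher in SECO and at least 1.59-fold higher in SECG. HMGA1, with its values above, differed by 2.06 ± 0.41 (limma adjusted p = 0.238) and was highest at the secondary stage in both compartments, at least 2.06-fold higher in SECG than in PDG.

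PRMT1, with its values above, was highest at the secondary stage in both compartments (1.34 ± 0.43, limma adjusted p = 0.338). CHD4, the ATPase of the NuRD complex, was detected on every captured array, at 783, 1341 and 2193 in PDO, PMO and SECO and at 1120, 1311 and 2524 in PDG, PMG and SECG. Its signal was lowest at the primordial and highest at the secondary stage in both compartments (1.31 ± 0.38, limma adjusted p = 0.304). With its 4 probe sets averaged the difference was 0.23, but each of the other sets was detected on at most 1 captured array. HDAC6, a cytoplasmic deacetylase of tubulin, was at 30.2, 44.6 and 167 in oocytes and at 62.5, 90.5 and 111 in GC (1.28 ± 0.45), with PDO and PMO not detected.

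On the lower side PRMT5 differed by -1.24 ± 0.38 (limma adjusted p = 0.322), -1.49 in oocytes and -0.99 in GC, with the stages in the same order in both. KAT8 differed by -1.06 ± 0.56, RNF2 by -0.90 ± 0.48 and KAT7 by -0.79 ± 0.38. RNF2 was at least 2.41-fold lower in SECO than in PDO. CHD2 differed by -0.69 ± 0.45, and when all its 5 probe sets were averaged the difference was 0.01. Each of the other CHD2 sets was detected on at most 1 captured array. The granulosa cell marker sums given above were also highest at the secondary stage in both compartments. The 4 red blood cell markers summed to 136, 67.8 and 4460 in PDO, PMO and SECO and to 201, 796 and 192 in PDG, PMG and SECG. Other lists were lower at the secondary than at the primordial stage: the oocyte marker and the 20 cell cycle sums in oocytes (cell cycle genes at 8659, 8090 and 3948 in PDO, PMO and SECO and 5058, 6068 and 4620 in PDG, PMG and SECG), the stroma sum in GC, and the 7 endothelium markers in GC, with 951, 766 and 1164 in PDO, PMO and SECO and 2346, 748 and 253 in PDG, PMG and SECG. The part of these lists in the stage values was not tested.

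**Figure D4:**
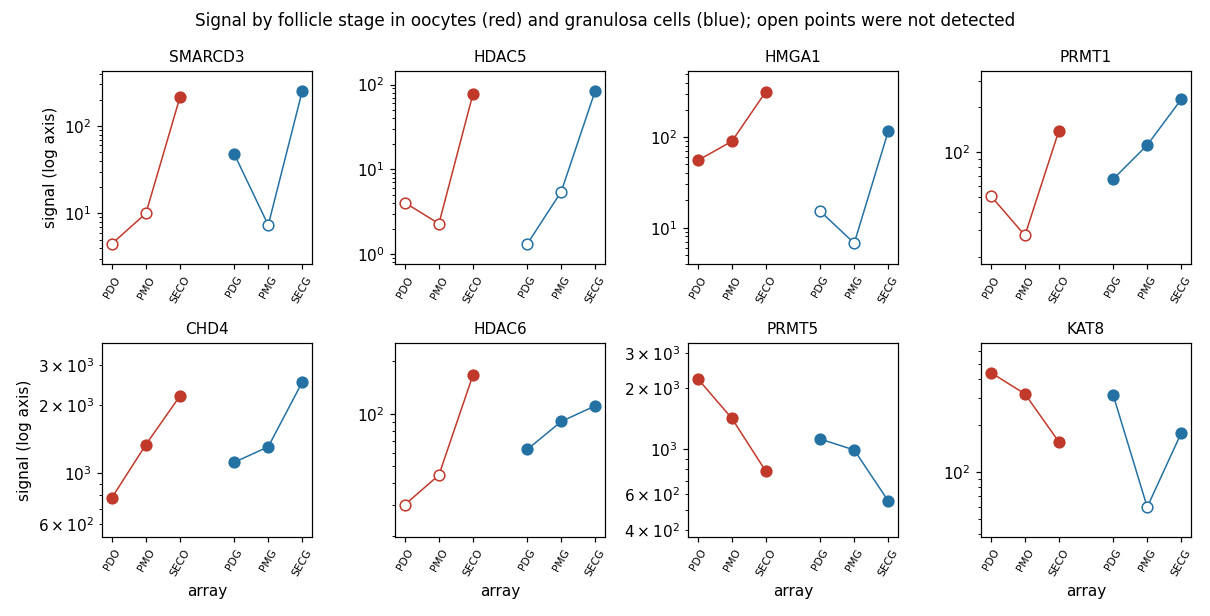
Signal (log axis) of 8 members by stage, oocytes in red on the left and GC in blue on the right of each panel; open points were not above the detection limit. CHD4 stands at 783, 1341 and 2193 in oocytes and 1120, 1311 and 2524 in GC, and HDAC5 was detected only on the 2 secondary arrays.

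Whole ovine fetal ovary shows how the labelling used for captured cells measured the same genes in 1 RNA source. With 1 array each there was no test. Of 68 members detected under P3 or P1, 10 were at least 2-fold higher and 13 at least 2-fold lower under P3, beside 16.8% and 19.0% of genes, and the median difference was -0.13 in members and -0.03 in genes. RNF2 was at 74.8 under P2, 41.9 under P3 and 257 under P1, and just missed the detection limit of 42.3 under P3, so it was at least 4.44-fold lower under P3 than under P1. SMARCB1 was at 56.1, 27.3 and 312 under P2, P3 and P1, at least 5.32-fold lower under P3. SMARCA5 was at 38.8, 30.9 and 149 under P2, P3 and P1, at least 2.72-fold lower under P3, and PRMT1 was at 248, 289 and 932. SETD3, an actin histidine methyltransferase, was at 139, 48.2 and 170. All 6 captured arrays were labelled by P3.

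The opposite held for SMARCA4, with 1813, 4567 and 625 under P2, P3 and P1, a P3 minus P1 difference of 2.83. ING1, a subunit of the SIN3 deacetylase complex, was at 270, 282 and 38.8, SUV39H1 at 211, 436 and 89.1, PRMT5 at 1077, 1940 and 469, and EED at 1144, 2588 and 695. Of the 10 members 2-fold higher under P3, 5 were also 2-fold higher under P2, and of the 13 lower under P3, 7 were also 2-fold lower under P2. The kept probe set of a gene was the brightest on the captured arrays, all labelled by P3. The part of this choice in these differences was not tested. Among members with several probe sets, the kept sets detected under P1 had a median P3 minus P1 difference of -0.55 (28 sets) and the others -1.15 (39 sets). Over all genes with several probe sets these medians were -0.05 (2094 sets) and -1.19 (1889 sets). For HMGB1 the kept probe set was at 1923 under P3 and 1792 under P1, and the other was at 121 under P3 and 1687 under P1. For DNMT3A the kept set was at 93.0 under P3 and 75.0 under P1, and a second set was at 42.7 under P3 and 438 under P1.

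Between species under P1, 10 of 73 members were at least 2-fold higher and 10 at least 2-fold lower in ovine than in bovine ovary, beside 13.3% and 17.7% of genes, with no replicate array and ages that differed. On the chip designed for bovine sequence 72 members were detected with bovine RNA and 66 with ovine RNA; 7 were detected with bovine RNA alone and 1, DNMT3B, with ovine RNA alone. BRD7, a bromodomain subunit of a SWI/SNF complex, was at 18.2 in ovine and 187 in bovine ovary, at least 3.98-fold lower in ovine. BRD2, a bromodomain protein that binds acetylated histones, was at 11.9 in ovine and 133 in bovine ovary, at least 2.93-fold lower, and BRD9 was at 29.7 in ovine and 113 in bovine ovary, at least 2.55-fold lower. RING1 was at 42.6 in ovine and 241 in bovine ovary, a difference of -2.06, and HMGN4 was at 7.1 in ovine and 90.4 in bovine ovary. On the captured ovine arrays BRD2 and BRD9 were not detected and RING1 and HMGN4 were detected on 1 array each, while BRD7 was detected on all 6. On the other side stood SMARCA4 with 625 in ovine and 186 in bovine ovary, KDM5C with 680 in ovine and 224 in bovine ovary, and EZH2 with 281 in ovine and 91.6 in bovine ovary. CHD9, at 671 in ovine and 244 in bovine ovary, and EED, at 695 in ovine and 276 in bovine ovary, came next.

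**Figure D5:**
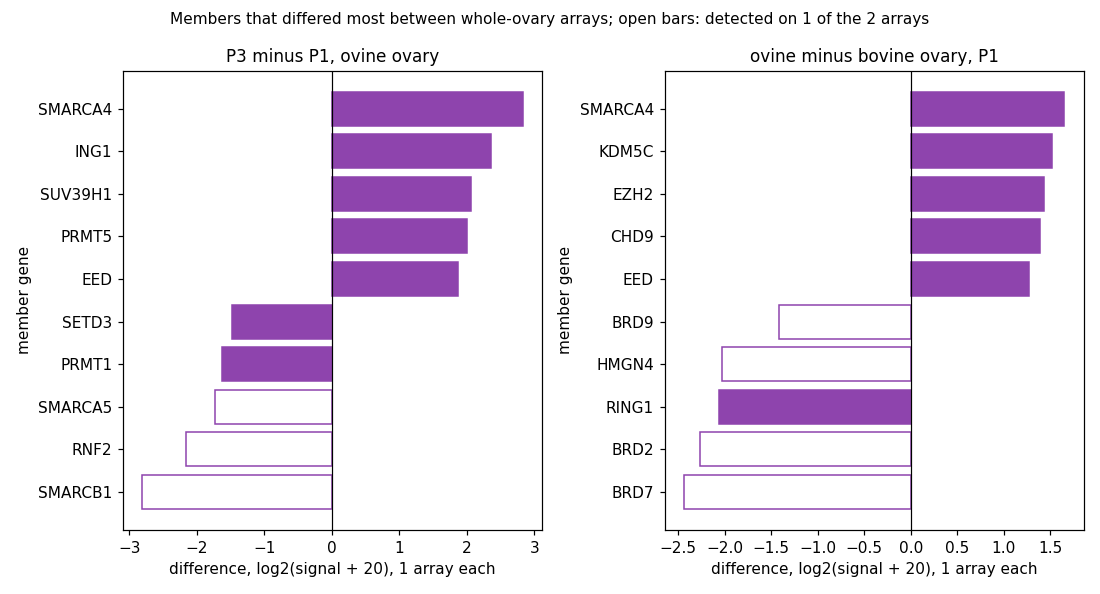
Differences in log2(signal + 20) between single whole-ovary arrays for the 5 members with the largest difference each way, P3 minus P1 in ovine ovary on the left and ovine minus bovine under P1 on the right; open bars mark members detected on only 1 of the 2 arrays. SMARCA4 is the highest bar in both panels (2.83 and 1.65), and BRD7 the lowest of the species comparison.

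Agreement between probe sets of one gene could be checked for few members. Of the 76 members 30 had several probe sets. Beside the kept one, 17 further sets were detected on at least 3 captured arrays, in 7 genes, and 10 of them had the same sign of oocyte minus GC as the kept set; without the sets annotated EED it was 5 of 6. RNF2, HMGA1, KAT7, SMARCA1, SMARCA2 and SETD7 had a single probe set each, so no second set measured them.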

How the data were processed

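Per the labels and the study's methods, the authors extracted signal intensities with MAS 5.0 from 10 Affymetrix Bovine Genome Arrays and scaled each array to a target of 100; the deposited values are linear intensities with 1 array per condition. The members and gene lists were chosen with earlier results of these data known. The platform annotation gave 1 symbol to 13292 of 24016 probe sets, several to 86 and none to 10638; the 112 control probe sets were left out. log2(signal + 20) was tested with limma 3.58.1 in R 4.3.3, with stage and compartment as terms, on 11642 probe sets detected on at least 1 of 6 captured arrays (2 residual degrees of freedom). The 3 stages stood in for replicates. With stage as a term, p-values measure how far the oocyte minus GC difference varied between stages, not the spread between animals. Present calls per probe set were not used here; detection was the brightest share of each array set by the study's present-call percentage. The fit was run on simulated data with shifts larger than any fitted member difference, which does not measure its power at the sizes seen here. Comparisons of single arrays had no test. "At least" folds place an undetected array at its lowest detected signal, and their log means use the same constant of 20. Named genes were RNF2, the other Polycomb and DNMT members, the 8 with the largest compartment difference each way among those of one sign at all stages and detected on 3 arrays, the 6 brightest, the 5 largest each way by stage, protocol and species, the brightest of each family, and those detected in every array of 1 compartment only. Python 3.11.15 drew the summaries. Alternatives were constants of 1 and 50, quantile normalization, detection filters, means over probe sets, an intensity trend, no stage term and leaving out each stage. The number of arrays limits the precision.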

Additional observations from a re-analysis of the deposited data

How the results depend on the processing

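No compartment difference of a member passed an adjusted p under 0.05 in any of the 11 alternative fits with limma (smallest adjusted p 0.121). Of 256 values of named genes, 253 kept their sign without a call. These genes were chosen for one sign at all stages or in both compartments. Only quantile normalization and averaging of probe sets could therefore reverse a sign, so the count does not measure robustness. CHD2 turned to 0.01 by stage when its probe sets were averaged. SMARCD3 passed by stage with a constant of 50 (1.95, limma adjusted p = 0.0447) and without the primary stage (2.63, limma adjusted p = 0.0498), and no other member did so in any fit. Over all probe sets, an intensity trend in the variance gave 10 calls by compartment and 67 by stage, against 0 in the fit reported; a constant of 50 gave 37 by stage. Leaving out a stage gave 0 calls by compartment, and 18 by stage without the primary stage. Members above in oocytes without overlap were 1 with probe sets averaged and 4 to 14 without a stage; members under were 16 to 25 without the primordial or secondary stage and 14 without the primary stage. By stage, 3 members were 2-fold higher in both compartments with probe sets averaged, and 1 was 2-fold lower with a constant of 1. At 3-fold, 6 members were higher and 4 lower under P3, and 1 higher and 4 lower in ovine ovary; with a constant of 50, 6 were higher in ovine ovary. The cause of these changes was not tested. Fits without a stage had fewer arrays, and the 3-fold counts used a stricter fold. The alternatives for the stage counts and most of those for non-overlap, and the probe set of highest P1 signal, were chosen after seeing the data. Each compartment and stage had 1 array, so the stage term was the only pairing available. Leaving the stage term out gave 0 calls. Signals near the detection limit, as for RNF2 and SETD7, carry the least certainty, and the added constant shrinks their differences.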
